A study of Homo sapiens with 8 samples.

Results

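The prostaglandin genes are 8 protein-coding genes, PTGS1, PTGS2, PTGES, HPGD, PTGER1, PTGER2, PTGER3 and PTGER4, whose histone H3 lysine 27 acetylation (H3K27ac) was followed in WT and CREBBP-KO HCECs. All peaks overlapping the body of each gene or the 50 kb on either side of it were taken (GENCODE release 44, hg38). Merging peaks that touched across libraries gave 85 intervals in these windows, of 143733 in all, of which 36 had a peak in all 6 libraries, 22 in 2 to 5 and 27 in 1. The genes were chosen with the peak lists known, and PTGER3 was selected on the loss of peaks in and beside it in CREBBP-KO. The fold and presence of peaks in its window are therefore given as a description, without a test.

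HCECs are HCEC-1CT, an immortalized, non-transformed line of human colonic epithelial cells. The WT group was 3 libraries of unedited cells and the CREBBP-KO group, labelled CBP KO, was 3 libraries of cells in which the lysine acetyltransferase gene CREBBP was knocked out with Cas9. Both were grown without further treatment. The 3 libraries of a genotype are labelled 1 to 3 and were taken here as independent replicates. The methods call the knockout cells of this experiment monoclonal and also describe final populations pooled from several clones of each target, so whether these cells were 1 clone or a pool is unclear, and genotype and clone cannot be told apart. A peak's height was the fold of its summit over the local background, a linear ratio given by the peak caller, and its percentile was its position by fold within the list of its own library. At a percentile of 50, for example, the peak was higher than 50% of the peaks of that library.

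Prostaglandins are short-lived lipid messengers made from arachidonic acid. The cyclooxygenases encoded by PTGS1 and PTGS2 make the common precursor, the synthase encoded by PTGES turns it into prostaglandin E2, and the dehydrogenase encoded by HPGD inactivates prostaglandin E2. The receptors encoded by PTGER1 to PTGER4 read it at the cell surface: those of PTGER2 and PTGER4 raise cyclic AMP, that of PTGER3 mostly lowers it, and that of PTGER1 signals through calcium. In the colon this pathway is known for its part in epithelial repair and in tumour growth, where PTGS2 is often raised and HPGD often reduced. H3K27ac marks active promoters and enhancers, and CREBBP is one of the enzymes that place it.

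The WT lists held 86163 to 93567 peaks and the CREBBP-KO lists 99008 to 111697. Of 11 colonic epithelial marker genes, 2 (EPCAM and KRT8) had a promoter peak in all 6 libraries and 7 had none in any library, CDX1, CDX2, VIL1 and CDH17 among them. All 7 fibroblast markers had one in all 6 libraries. Of the immune genes, PTPRC, CD3E and LYZ had none and CD14 had one in all 6, and of the endothelial genes, CDH5 and KDR had none and PECAM1 had weak ones in the 3 CREBBP-KO libraries, with folds of 2.80, 3.60 and 2.80. Most of the genes that define colonic epithelium thus lacked promoter acetylation in these cells. LGALS4, of the epithelial list, had a promoter peak in the 3 WT libraries alone. Where a peak was present in all 6 libraries, the percentile was higher in CREBBP-KO without overlap for both epithelial genes, for CD14 and for 5 of the 7 fibroblast genes, beside 45.0% of all promoters. The mean percentile of EPCAM was 5.27 in WT and 33.8 in CREBBP-KO, that of KRT8 48.0 and 67.9, and that of CD14 32.6 and 55.9, while COL1A1, COL1A2, PDGFRB, THY1 and VIM stood at 80.2 to 98.9 in WT against 86.5 to 99.9 in CREBBP-KO. The EPCAM peak lay -24690 to -24322 bp from the start of the canonical transcript, at another annotated start. The highest KRT8 peak was not the same in both genotypes. Its summit lay -44630 to -44261 bp from the canonical start in WT and -20590 to -19767 bp in CREBBP-KO. In WT it was also the KRT18 promoter peak, with folds of 4.56, 4.97 and 3.60. The KRT8 means thus compare different peaks. The part of the marker differences in the results below was not tested. In a population of cells, fewer marked cells and less acetylation per cell cannot be told apart.

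The promoters of PTGS2, PTGER2 and PTGER4 are shown because they lay in the acetylated promoter intervals of the inducible enzyme and of the receptors that raise cyclic AMP. Each run is the 250 bases before the start, 5′ to 3′ on the strand of the gene (RefSeq, GRCh38.p14), at chr1:186680424-186680673 on the minus strand for PTGS2, chr14:52314062-52314311 for PTGER2 and chr5:40679665-40679914 for PTGER4, the last 2 on the plus strand. Peaks of all 6 libraries spanned these runs, but no summit lay within them. Capitals mark matches to the motifs searched.
PTGS2 promoter: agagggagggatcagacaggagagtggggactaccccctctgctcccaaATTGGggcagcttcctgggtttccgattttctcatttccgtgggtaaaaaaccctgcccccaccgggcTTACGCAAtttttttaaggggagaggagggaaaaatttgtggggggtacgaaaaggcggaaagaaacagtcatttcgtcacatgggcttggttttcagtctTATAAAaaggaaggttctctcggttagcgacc
PTGER2 promoter: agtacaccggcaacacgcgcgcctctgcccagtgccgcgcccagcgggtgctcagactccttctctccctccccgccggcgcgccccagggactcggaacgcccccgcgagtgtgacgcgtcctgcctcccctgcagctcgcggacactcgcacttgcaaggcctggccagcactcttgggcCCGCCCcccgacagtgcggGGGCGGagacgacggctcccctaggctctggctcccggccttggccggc
PTGER4 promoter: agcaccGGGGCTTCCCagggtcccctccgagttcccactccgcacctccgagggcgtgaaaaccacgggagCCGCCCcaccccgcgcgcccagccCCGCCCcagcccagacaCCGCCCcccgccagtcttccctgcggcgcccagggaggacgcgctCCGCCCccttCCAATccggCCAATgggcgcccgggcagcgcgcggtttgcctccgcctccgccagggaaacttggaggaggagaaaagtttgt

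Promoter entries were matched for 7 of the 8 genes, all but PTGER3. The motifs searched on both strands were TATAAA (the TATA box), TGACGTCA (cyclic AMP response element), TGANTCA (AP-1), GGGCGG (the GC box), the letters CCAAT, the E-box CACGTG, TTGCNNAA (C/EBP) and NF-kB. The PTGS2 sequence held a TATA box whose first base lay at -32, a C/EBP match at -133 and a CCAAT match at -201, counted from the base before the start as -1. Among 35116 RefSeq promoters, 10.7%, 9.05% and 32.0% held the same 3 motifs. The PTGER2 sequence held 2 GC boxes and the PTGER4 sequence held 4 GC boxes, 2 CCAAT matches and 1 NF-kB match, against 42.6%, 32.0% and 5.21% of promoters with at least 1. PTGS2 differed in base composition too, with 50.4% G and C against 74.0% for PTGER2 and 72.8% for PTGER4. None of the 3 sequences held the letters of the cyclic AMP response element, which 1.65% of promoters held.

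The strongest of the PTGER3 sites marked in each WT library and unmarked in each CREBBP-KO library are shown because they were the clearest losses among the 8 windows. Each is the 300 bases around the summit of WT replicate 2, the highest of the WT peaks there, on the plus strand of hg38, at chr1:70818286-70818585, beyond the end of the gene, and at chr1:70863905-70864204, in an intron. The summits of WT replicates 1 and 3 at site 1, and of WT replicate 3 at site 2, lay outside the bases shown.
PTGER3 lost site 1: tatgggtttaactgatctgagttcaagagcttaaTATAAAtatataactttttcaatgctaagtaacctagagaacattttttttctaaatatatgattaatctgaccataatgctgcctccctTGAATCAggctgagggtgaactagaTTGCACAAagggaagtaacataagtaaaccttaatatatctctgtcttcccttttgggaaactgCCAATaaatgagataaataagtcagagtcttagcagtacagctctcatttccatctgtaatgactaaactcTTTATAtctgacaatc
PTGER3 lost site 2: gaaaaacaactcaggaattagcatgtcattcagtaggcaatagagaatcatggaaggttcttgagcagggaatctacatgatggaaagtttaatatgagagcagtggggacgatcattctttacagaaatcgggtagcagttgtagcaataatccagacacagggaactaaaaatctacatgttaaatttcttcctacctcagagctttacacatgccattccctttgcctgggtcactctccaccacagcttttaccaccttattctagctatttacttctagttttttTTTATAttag

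Site 1 held an AP-1 match, a C/EBP match, a CCAAT match and 2 TATA boxes, and site 2 held 1 TATA box. Of 34847 windows of this length around the summits of fitted intervals, 8.81% held the AP-1, 11.3% the C/EBP and 15.9% the TATA letters, and 9404 held CCAAT. The bases shown held 33.3% and 38.7% G and C. As whole intervals the sites held 37.4% and 38.2%. The median was 38.6% for the 1548 lost intervals of the genome and 43.0% for all intervals with a peak in all 6 libraries. No GC box lay in either site, and 22.5% of the windows held one.

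Over all 8 windows, peaks covered 124.5 ± 3.00 kb in WT and 115.0 ± 5.39 kb in CREBBP-KO (SD, n = 3) and numbered 60, 62 and 56 in WT and 63, 54 and 57 in CREBBP-KO. These totals include the PTGER3 window and are given without a test. Without it the cover was 93.9 ± 2.21 kb in WT and 98.6 ± 3.79 kb in CREBBP-KO (SD, n = 3; two-sided exact permutation test, p = 0.2), and the counts were 43, 45 and 40 in WT and 54, 45 and 49 in CREBBP-KO (exact permutation test, p = 0.2), which turned the direction of both. The groups overlapped in both measures. A test of 3 libraries against 3 cannot give a p below 0.1. The cover of the PTGER3 window was 32.7, 29.5 and 29.6 kb in WT and 13.9, 16.7 and 18.4 kb in CREBBP-KO, whereas that of the PTGER4 window was 18.3, 16.5 and 15.7 kb in WT and 19.8, 19.3 and 21.2 kb in CREBBP-KO, higher without overlap (exact permutation test, p = 0.1). The PTGES window was also higher without overlap, by a small margin, with means of 8.95 ± 0.147 kb in WT and 9.62 ± 0.462 kb in CREBBP-KO (SD, n = 3; exact permutation test, p = 0.1). The share of all gene windows with a higher cover without overlap was not computed, and the CREBBP-KO lists were the longer ones.

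**Figure D1:**
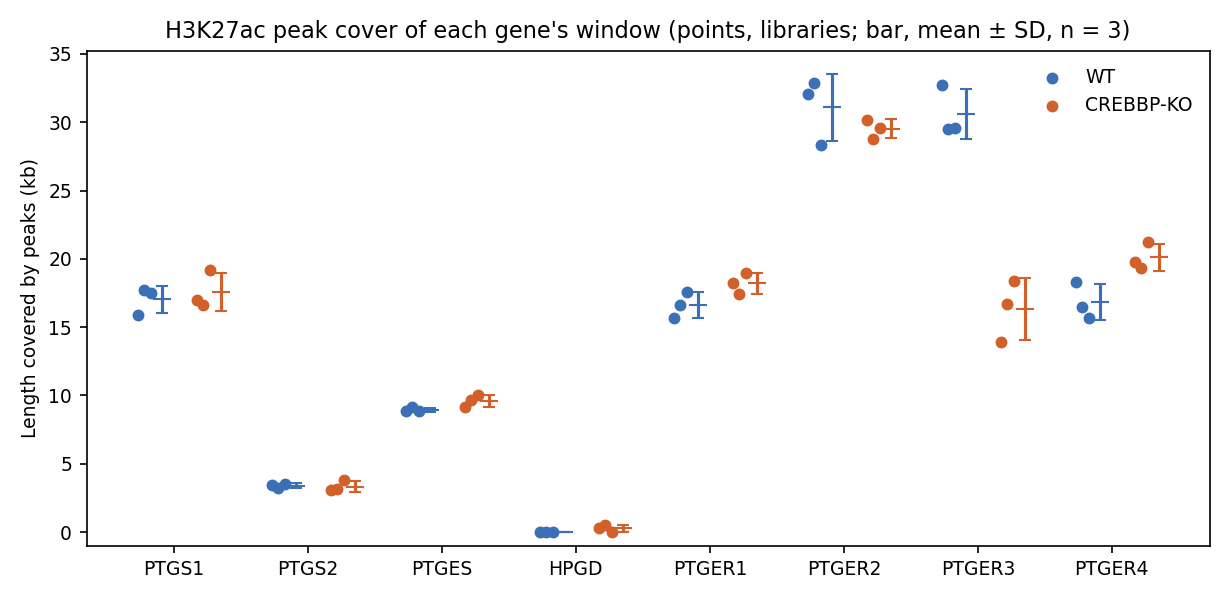
Length of each gene's window covered by H3K27ac peaks (kb), with 1 point per library and the mean ± SD (n = 3) of WT (blue) and CREBBP-KO (orange). The PTGER3 window lay lower in every CREBBP-KO library, the PTGER4 window lay higher, the PTGES window lay slightly higher, and the HPGD window was nearly bare in both genotypes.

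PTGS1 (ENSG00000095303.17, chr9:122370530-122395703, plus strand) encodes the cyclooxygenase found in most tissues. It had 2 promoter intervals, one at its upstream start and one at an internal start. The upstream interval (chr9:122370627-122371717, exons 1 and 2) had folds of 3.59, 3.73 and 4.17 in WT and 4.15, 5.15 and 6.64 in CREBBP-KO. Its percentiles, 35.9 to 45.7 in WT against 52.3 to 71.4 in CREBBP-KO, did not overlap, although the lowest CREBBP-KO fold was below the highest WT fold. The internal interval (chr9:122374619-122377094, intron) was the higher of the pair in 5 libraries, with percentiles of 56.6, 61.3 and 65.7 in WT and 72.8, 72.3 and 70.0 in CREBBP-KO.

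Of the 3 fitted intervals in the PTGS1 body, 1 passed the test, and it ranked lower. The interval over exon 8, chr9:122382706-122384783, had folds of 7.09, 7.28 and 7.22 in WT and 6.39, 5.48 and 4.32 in CREBBP-KO. All 3 CREBBP-KO folds lay below those of WT, but the percentiles of CREBBP-KO replicate 1 (73.4) and WT (72.6 to 73.8) overlapped. In limma fitted to ranks over 34864 intervals its shift was -0.85 ± 0.30 normal-score units (SE; Benjamini-Hochberg adjusted p = 0.0280), so that it ranked lower. Across all fitted intervals, 18.7% ranked lower in CREBBP-KO and 18.6% higher. This call was lost in 7 of 14 alternative fits, among them those without WT replicate 1, 2 or 3 or CREBBP-KO replicate 3, with adjusted p from 0.00941 to 0.15. The interval over exon 11, chr9:122391567-122395851, had folds of 7.20, 7.76 and 8.32 in WT and 9.80, 11.8 and 11.1 in CREBBP-KO, without overlap, and a shift of 0.52 ± 0.21 (SE) that did not pass (limma, adjusted p = 0.0557). The strongest distal interval of the window lay 74.2 kb downstream of the start (chr9:122443128-122447365), with overlapping percentiles of 92.2, 82.0 and 88.6 in WT and 86.8, 78.7 and 85.9 in CREBBP-KO.

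PTGS2 (ENSG00000073756.13, chr1:186671791-186680922, minus strand) encodes the inducible cyclooxygenase. Its window held a single interval shared by all libraries, chr1:186679687-186683365, which ran 3.68 kb across the start and exon 1. The folds were 10.9, 9.30 and 11.3 in WT and 12.0, 13.4 and 12.7 in CREBBP-KO. Every CREBBP-KO library was above every WT library, by fold and by percentile (82.0 to 86.6 in WT against 88.4 to 90.5 in CREBBP-KO; exact permutation test, p = 0.1). The summits lay close together, from -516 to -406 bp of the start, upstream of the sequence shown above. The other interval of the window was 1 peak of CREBBP-KO replicate 3, with a fold of 3.35, 42.7 kb downstream.

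The separation at PTGS2 has to be read against all promoters. Of 12142 protein-coding genes with a promoter peak in all 6 libraries, 45.0% had a higher within-list percentile in CREBBP-KO without overlap and 7.71% a lower one. Separation upwards on this scale was therefore common. When the promoters were ranked among themselves in each library, PTGS2 stood at percentiles 47.5, 34.4 and 44.4 in WT and 40.7, 47.0 and 39.0 in CREBBP-KO, which overlapped, with means of 42.1 ± 6.82 and 42.2 ± 4.17 (SD, n = 3; exact permutation test, p = 1). In this ranking 21.7% of promoters were higher and 20.5% lower without overlap. The limma shift of the PTGS2 interval was 0.19 ± 0.18 (SE; adjusted p = 0.415) and did not pass in any of 14 alternative fits.

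The genes whose promoters were most like PTGS2 over the 6 within-list percentiles were HSF2, CCDC97 and ASS1, at Euclidean distances of 2.13, 2.44 and 2.54 percentile points. HSF2 was at 82.2 to 85.7 in WT against 88.2 to 90.0 in CREBBP-KO. These distances describe 6 libraries and 12142 genes.

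PTGES (ENSG00000148344.11, chr9:129738331-129753042, minus strand), the synthase that makes prostaglandin E2, had almost no promoter acetylation. The only promoter peak was in CREBBP-KO replicate 3, with a fold of 2.29 and a percentile of 2.06. Just beyond the end of the gene, chr9:129737595-129738263 had no peak in WT replicates 1 and 3, a fold of 4.62 in WT replicate 2, and folds of 7.30, 6.42 and 6.69 in CREBBP-KO. Further peaks of the window lay in and near PRRX2 and TOR1B. The strongest distal interval, chr9:129696837-129699884, inside PRRX2, had overlapping folds of 14.2, 15.5 and 14.5 in WT and 16.0, 14.0 and 13.6 in CREBBP-KO. A weak interval 20.3 kb upstream of the start, chr9:129773089-129773651, had no WT peak and CREBBP-KO folds of 2.81, 3.34 and 3.60.

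HPGD (ENSG00000164120.14, chr4:174490175-174523154, minus strand), the enzyme that inactivates prostaglandin E2, had no promoter peak in any library. In a window of 133.0 kb, the WT libraries had no peak at all. CREBBP-KO replicate 1 had 1 peak with a fold of 2.34 in an intron, and CREBBP-KO replicate 2 had 1 with a fold of 3.38 over exon 7. Neither was shared.

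PTGER1 (ENSG00000160951.4, chr19:14472466-14475354, minus strand), the calcium-linked receptor, had a weak promoter interval at chr19:14475010-14476383. The folds were 4.40, 2.68 and 3.79 in WT and 3.98, 3.06 and 3.01 in CREBBP-KO. The percentiles ranged from 9.68 to 51.7 in WT and from 22.1 to 49.5 in CREBBP-KO and overlapped (difference of means, -1.45; exact permutation test, p = 0.9). Among promoters this gene stood at 2.60 ± 2.54 in WT and 0.692 ± 0.724 in CREBBP-KO (SD, n = 3), near the bottom in both.

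The stronger intervals of the PTGER1 window lay at or between its neighbours. The GIPC1 and DNAJB1 promoter intervals ranked higher in CREBBP-KO, by 0.62 ± 0.22 and 0.59 ± 0.19 (SE; limma, adjusted p = 0.0283 and 0.0167). Between genes, 33.1 kb upstream of the PTGER1 start, chr19:14504815-14512105 had folds of 10.7, 16.7 and 11.5 in WT and 20.7, 20.6 and 21.1 in CREBBP-KO, without overlap, and a shift of 0.71 ± 0.20 (SE; limma, adjusted p = 0.00755). It was the strongest distal interval of this window. The adjusted p rose to as much as 0.160 for the distal interval, 0.286 for GIPC1 and 0.329 for DNAJB1 in other fits, and all 3 calls were lost without WT replicate 1 and with ranking by -log10 p. That of GIPC1 was also lost without WT replicate 3 or any 1 CREBBP-KO replicate, that of DNAJB1 without CREBBP-KO replicate 1 or 2, and both with the GC trend removed. A weak GIPC1 interval, chr19:14480500-14481387, had no WT peak and CREBBP-KO folds of 2.76, 2.44 and 2.83.

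PTGER2 (ENSG00000125384.7, chr14:52314305-52328598, plus strand), a receptor that raises cyclic AMP, showed the clearest change outside the PTGER3 window. Its promoter interval, chr14:52311965-52321973, spanned 10.0 kb over the start and exon 1. The folds were 9.07, 11.3 and 11.7 in WT and 16.9, 18.0 and 18.5 in CREBBP-KO, with means of 10.7 ± 1.43 and 17.8 ± 0.802 (SD, n = 3). All 3 CREBBP-KO libraries were higher, at percentiles of 95.3 to 95.4 against 81.0 to 87.9 in WT (exact permutation test, p = 0.1). The interval ranked higher in limma, by 0.75 ± 0.17 (SE; adjusted p = 0.00217). It was called in 13 of 14 alternative fits, including each fit that left out 1 library. The call was lost with ranking by -log10 p, where the shift was 0.33 (limma, adjusted p = 0.0762).

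Among promoters, PTGER2 rose as well. It stood at percentiles 33.0, 51.8 and 47.7 in WT and 69.1, 71.3 and 70.7 in CREBBP-KO, so that the groups did not overlap (means 44.2 ± 9.88 and 70.4 ± 1.14, SD, n = 3; exact permutation test, p = 0.1). The summits lay 113 to 856 bp after the start in WT and 271 to 338 bp after it in CREBBP-KO.

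The next interval along the gene went the other way. Over the last exon, exon 2, and the gene's end, chr14:52323034-52330822 had folds of 14.5, 12.6 and 11.2 in WT and 9.58, 10.6 and 10.5 in CREBBP-KO. Its CREBBP-KO percentiles of 84.0 to 85.4 were below those of WT, 86.4 to 93.1, without overlap, and it ranked lower by -0.55 ± 0.18 (SE; limma, adjusted p = 0.0219). This call was lost without WT replicate 1, CREBBP-KO replicate 1 or CREBBP-KO replicate 3, with the GC trend removed and with ranking by -log10 p. The ratio of the promoter fold to the last-exon fold, taken within each library, was 0.626, 0.899 and 1.05 in WT and 1.77, 1.69 and 1.76 in CREBBP-KO, a description of intervals picked for their opposite shifts. The order of these neighbouring peaks was thus last exon first or nearly equal in WT, and promoter first in all 3 CREBBP-KO libraries.

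**Figure D2:**
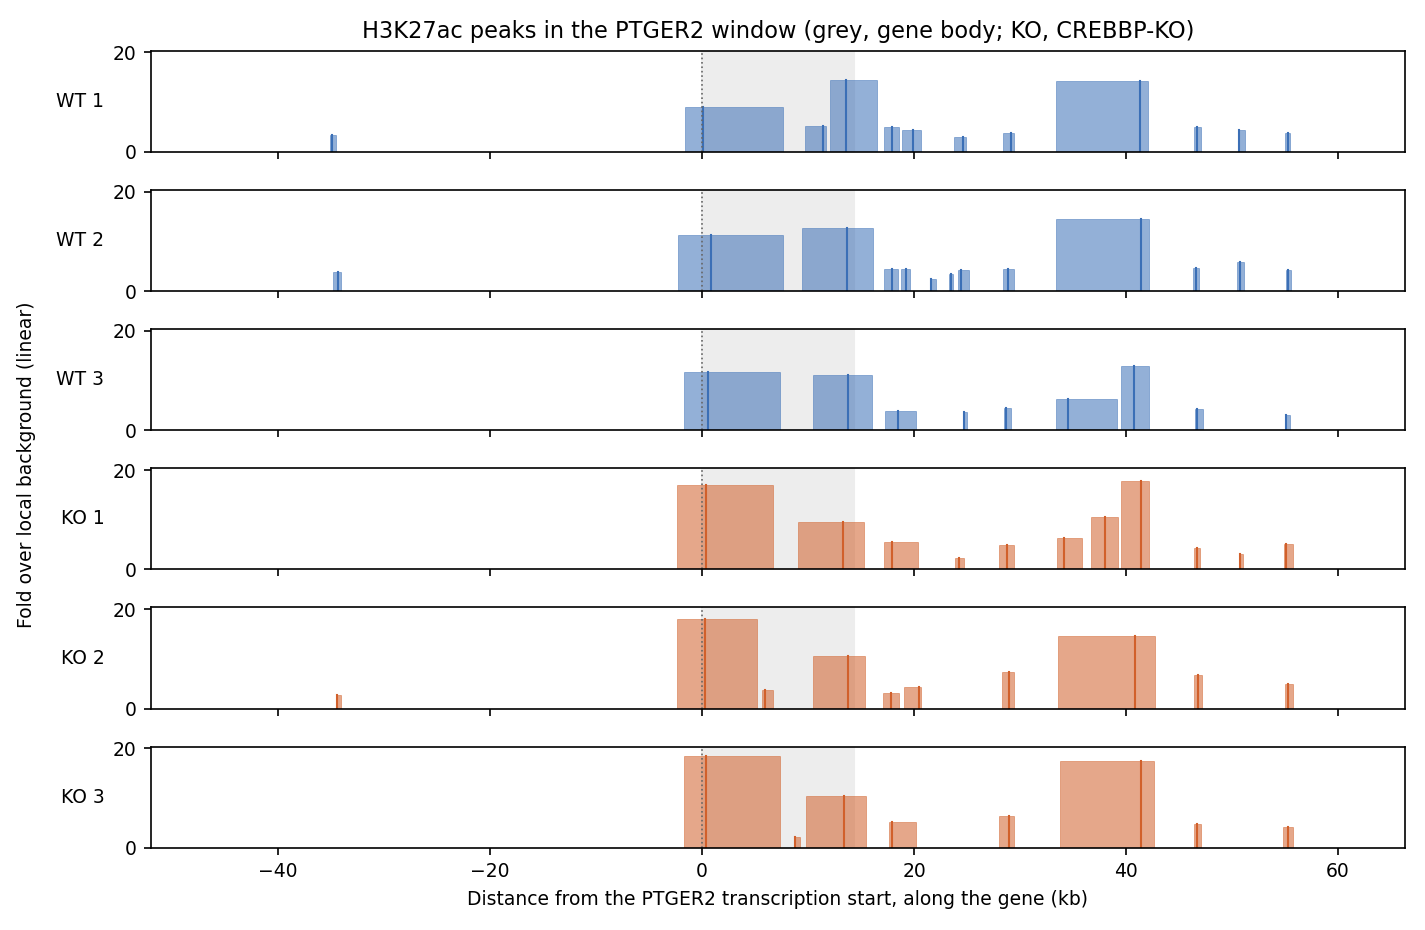
H3K27ac peaks of the PTGER2 window in each library, with distance from the transcription start along the gene (kb) on the x axis and fold over the local background (linear) on the y axis. Boxes span the called peaks, vertical lines mark their summits and the gene body is grey. The peak at the start was higher in the CREBBP-KO libraries, with folds of 16.9 to 18.5, and the peak over the gene's end was lower, with folds of 9.58 to 10.6.

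Downstream of PTGER2, the interval at 28.7 kb from the start (chr14:52342296-52343752) had folds of 3.87, 4.53 and 4.39 in WT and 5.01, 7.31 and 6.38 in CREBBP-KO, without overlap. It ranked higher by 0.79 ± 0.31 (SE; limma, adjusted p = 0.0483), a call that held in 6 of 14 alternative fits and was lost without WT replicate 1 or 2 or CREBBP-KO replicate 2 or 3. The strongest distal interval, chr14:52347677-52357005, had overlapping folds of 14.2, 14.5 and 13.0 in WT and 17.8, 14.6 and 17.4 in CREBBP-KO. PTGDR, the prostaglandin D receptor gene that lies in the same window, had no promoter peak in any library.

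PTGER4 (ENSG00000171522.6, chr5:40679915-40693735, plus strand), the other receptor that raises cyclic AMP, had the widest promoter interval of the 8 genes. One interval of 15.4 kb, chr5:40675464-40690863, covered the start and exons 1 and 2. The folds were 14.8, 11.7 and 15.7 in WT and 16.7, 17.6 and 16.6 in CREBBP-KO. The folds did not overlap, but the percentiles did, at 88.8 to 94.3 in WT against 93.5 to 95.2 in CREBBP-KO (difference of means, 2.41; exact permutation test, p = 0.2). Among promoters the means were 66.9 ± 10.2 and 66.3 ± 4.35 (SD, n = 3; exact permutation test, p = 1), and the limma shift of 0.14 ± 0.17 (SE; adjusted p = 0.542) did not pass. The summits lay from -946 to -884 bp of the start in all 6 libraries.

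Around PTGER4, only weak peaks differed. The interval at 25.6 kb upstream (chr5:40653994-40654640, inside TTC33) had no WT peak and CREBBP-KO folds of 3.20, 3.54 and 4.62. The interval 14.5 kb downstream (chr5:40694138-40694767) likewise had CREBBP-KO folds of 2.87, 3.25 and 2.47 and no WT peak. Of the distal intervals, the one with the highest mean percentile was chr5:40641063-40642255, at 32.9 to 46.1 in WT against 48.0 to 65.8 in CREBBP-KO.

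Taking the 5 genes with a promoter peak in all 6 libraries side by side, PTGS1, PTGS2 and PTGER2 were higher without overlap within the lists, beside the 45.0% of all such promoters given above. The differences of the mean percentiles were 11.0 for PTGS1, 4.49 for PTGS2 and 9.88 for PTGER2 (exact permutation test, p = 0.1 each). The PTGS1 value took the peak at the upstream start in CREBBP-KO replicate 3 and that at the internal start in the other libraries. For the internal interval alone the difference was 10.5, and its limma shift of 0.35 ± 0.28 (SE; adjusted p = 0.338) did not pass. Ranked among promoters, PTGS1 was at 8.23 ± 1.58 in WT and 7.89 ± 0.209 in CREBBP-KO (SD, n = 3; exact permutation test, p = 0.8). The order of the levels in WT was PTGER4, then PTGER2 and PTGS2, which overlapped, then PTGS1 and PTGER1. In CREBBP-KO, PTGER2 lay just above PTGER4 within the lists, at 95.3 to 95.4 against 93.5 to 95.2, and both were above PTGS2, PTGS1 and PTGER1.

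PTGER3 (ENSG00000050628.21, chr1:70852353-71047816, minus strand), the receptor that mostly lowers cyclic AMP, is the longest of the 8 genes, at 195.5 kb. Its body held 6, 7 and 4 peaks in WT and none in the 3 CREBBP-KO libraries. Of the 22 intervals of its window, 20 had a peak in some WT library and 8 in some CREBBP-KO library. These counts describe the contrast on which the gene was chosen. Promoter peaks were weak in WT too, with folds of 2.51 in replicate 1 and 3.86 in replicate 2 and no peak in replicate 3.

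Of the 42 intervals of the 8 windows with a peak in all 3 WT libraries, 3 had none in CREBBP-KO, all in the PTGER3 window, beside 2.61% of all such intervals. The other windows held 2 such losses with lists of equal length, 2 without CREBBP-KO replicate 1 and 1 with windows around summits in place of whole peaks. Beyond the end of the gene, 229.2 kb from the start, chr1:70817136-70820149 had folds of 7.81, 8.00 and 6.95 in WT, at percentiles of 76.2, 77.1 and 71.2. In the intron 183.5 kb from the start, chr1:70863084-70865456 had folds of 6.31, 8.23 and 6.70, at percentiles of 68.5, 78.1 and 69.8. These 2 sites, whose summit sequences are shown above, stood high among the 1548 lost intervals of the genome, of which 16 and 22 had a mean WT fold as high or higher, the site itself included. The third, chr1:71031549-71032982, 15.6 kb from the start, was weaker, with folds of 4.40, 3.88 and 3.86. No CREBBP-KO library had a peak at any of the 3, so no fold change can be given.

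**Figure D3:**
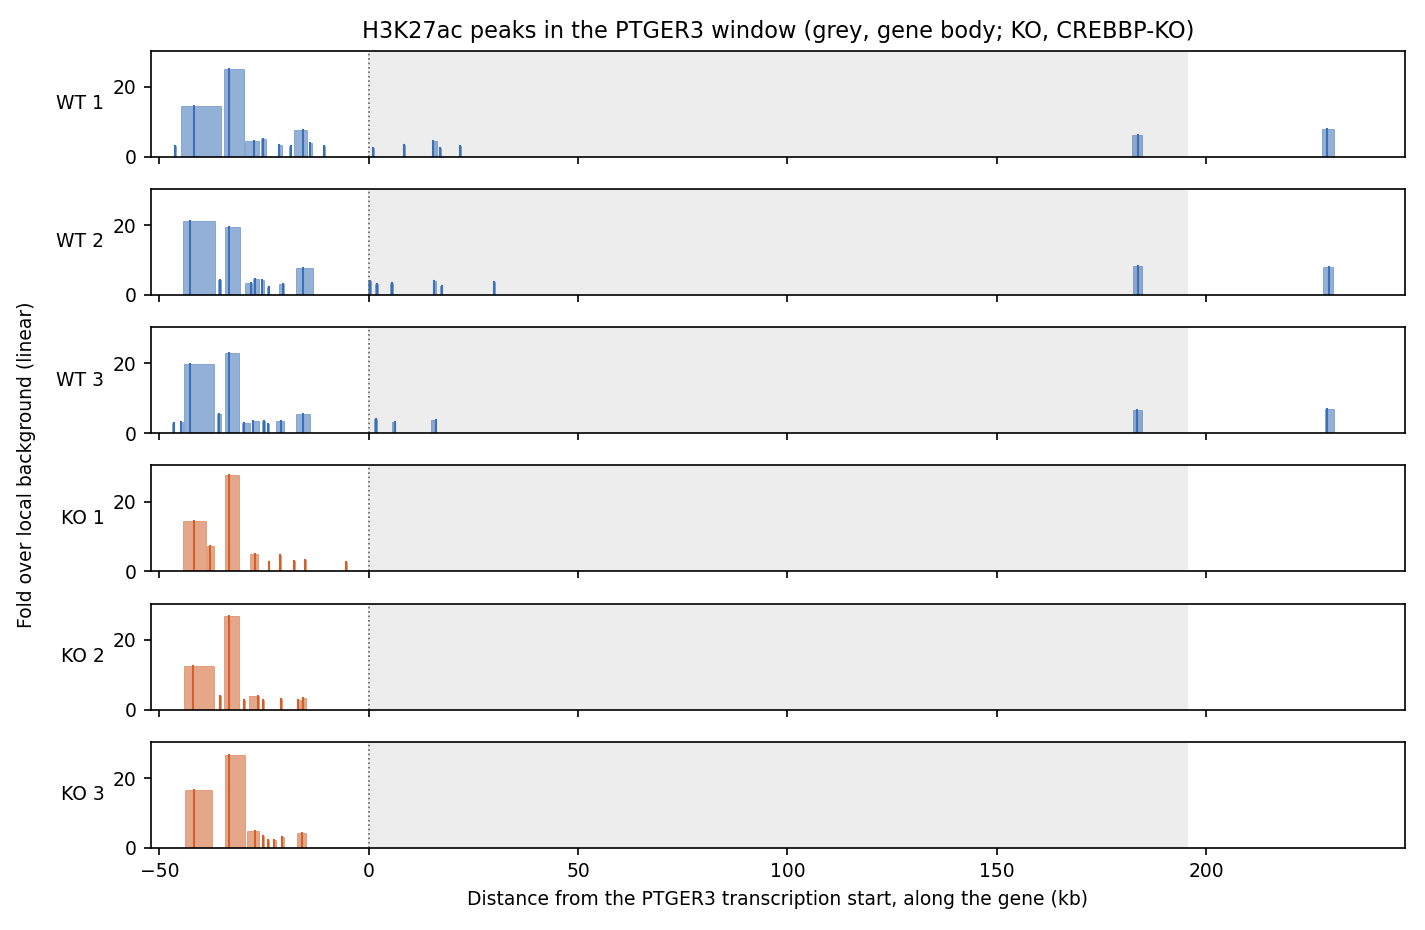
H3K27ac peaks of the PTGER3 window in each library, with distance from the transcription start along the gene (kb) on the x axis and fold over the local background (linear) on the y axis. Boxes span the called peaks, vertical lines mark their summits and the gene body is grey. The body and the region after it are empty in the 3 CREBBP-KO libraries, while the high peaks 30.3 and 40.1 kb upstream are present in all 6.

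The empty region ran past the edges of the gene. Its ends were set by the nearest CREBBP-KO peaks, so the absence of such peaks within it follows from how it was drawn. How often such stretches occur elsewhere was not counted. No CREBBP-KO library had a peak from 70510025 to 71053111 on chromosome 1, a stretch of 543.1 kb, in which the WT libraries had 10, 11 and 9 peaks in 15 intervals. Of those intervals, 4 had a peak in all 3 WT libraries: the 3 named above and chr1:70765457-70768510, which lay outside the window and had WT folds of 4.88, 5.94 and 4.37. Just inside the window's edge on the same side was the site at 32.2 kb from the gene body, and just outside it, at 72.7 kb, was an interval with folds of 5.77 and 4.25 in WT replicates 2 and 3 and no other peak. On the other side, the nearest interval inside, at 46.0 kb, had folds of 3.09 and 2.81 in WT replicates 1 and 3 and no CREBBP-KO peak, and the nearest outside, at 58.2 kb, had folds of 7.76, 6.63 and 6.95 in WT and 5.04, 3.10 and 4.98 in CREBBP-KO.

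Upstream of PTGER3, toward ZRANB2, the strongest peaks were present in all 6 libraries, whereas 3 weak intervals with a peak in 1 or 2 WT libraries had none in CREBBP-KO. The interval 15.7 kb upstream, chr1:71061229-71065782, had folds of 7.57, 7.77 and 5.40 in WT and 3.22, 3.26 and 4.17 in CREBBP-KO, lower without overlap. The ZRANB2 promoter interval, by contrast, held percentiles of 98.0 to 99.2 in WT against 98.9 to 99.4 in CREBBP-KO. The strongest distal interval, 40.1 kb upstream (chr1:71083053-71092780), had folds of 14.5, 21.1 and 19.7 in WT and 14.3, 12.5 and 16.6 in CREBBP-KO, which overlapped.

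PTGER3 was not the gene with the most lost intervals. With the same window, 45 of 20046 protein-coding genes had 3 or more, and the highest numbers were 8 for CDH9, 7 for MAP3K5 and 7 for NCKAP5. Of the intervals with a peak in all 3 WT libraries, the lost share was 3 of 8 for PTGER3, 8 of 22 for CDH9, 7 of 23 for MAP3K5 and 7 of 22 for NCKAP5. Like PTGER3, these are long genes, of 240.6, 236.1 and 896.7 kb.

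The gained intervals were weak. Of the 42 intervals with a peak in all 3 CREBBP-KO libraries, 4 had no WT peak, beside 5.97% of all such intervals, and their folds ranged from 2.44 to 4.62. They were the PTGES, GIPC1 and 2 PTGER4 intervals given above. With a fold of at least 3 asked of all 3 libraries, 1 of the 4 remained. The 3 losses also passed this filter, but PTGER3 was chosen for its losses, so gains and losses are not compared.

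In the 7 windows other than PTGER3, 22 of 63 intervals had a peak in all 6 libraries and passed the fold filter, 6 of them ranked higher and 2 lower, and 14 did not pass. The share ranked higher was 27.3%, beside the 18.6% of all fitted intervals, and the share ranked lower was 9.09%, beside 18.7%. At protein-coding promoters 25.9% of fitted intervals ranked higher and 8.98% lower, and away from them 14.9% ranked higher and 23.6% lower. All 4 fitted intervals of the PTGER1 window ranked higher, and in the other 5 windows with a fitted interval 2 of 18 ranked higher and 2 lower. The median shift was 0.17 in these windows and 0.02 over all intervals. By kind, 1 of 4 promoter intervals of the prostaglandin genes ranked higher, that of PTGER2, as did 3 of 4 at promoters of other genes, and of 14 distal intervals 2 ranked higher and 2 lower.

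**Figure D4:**
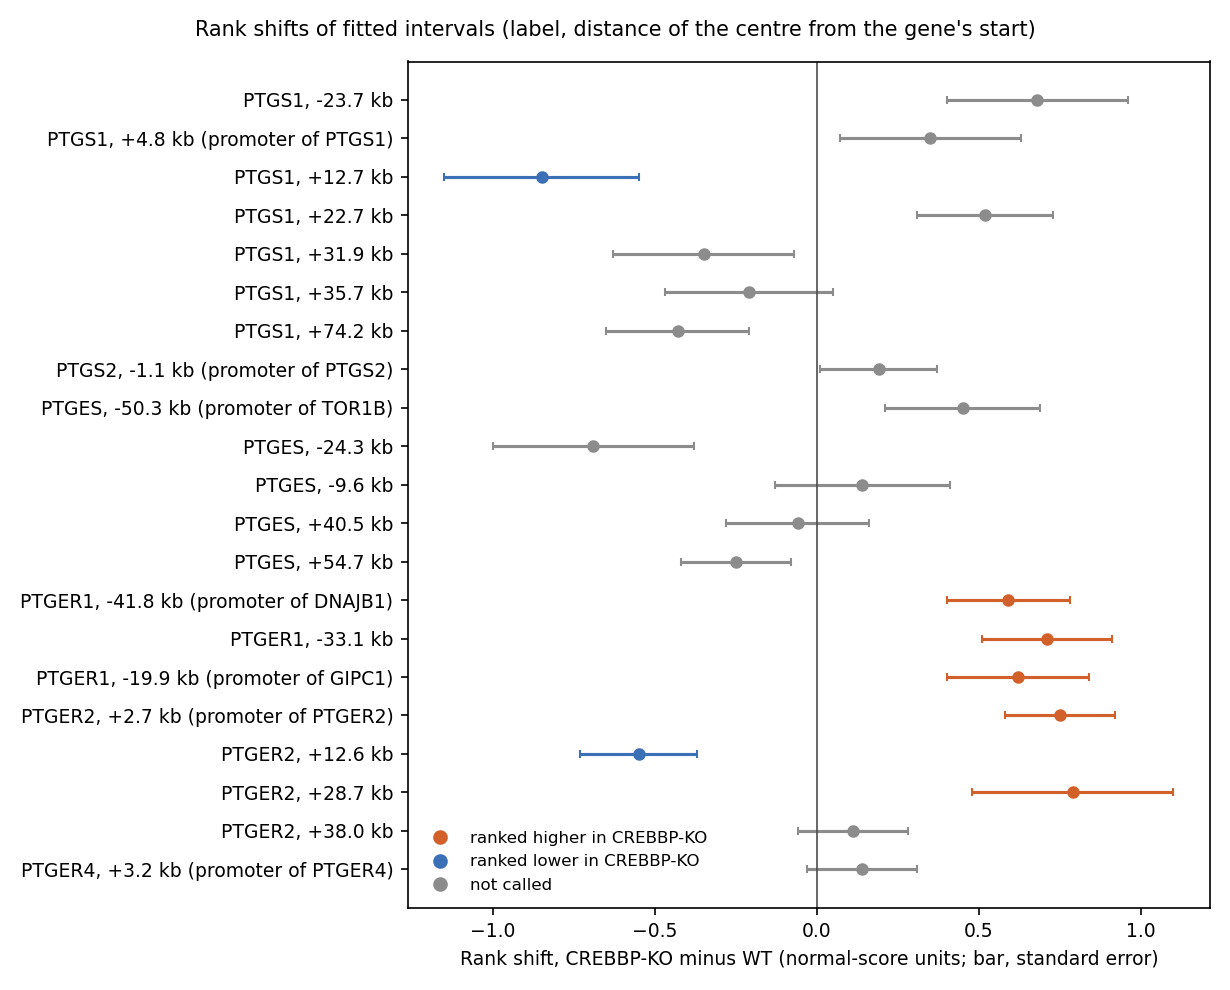
Rank shift from WT to CREBBP-KO of fitted intervals in the windows other than PTGER3, 1 interval of the PTGER1 window left out, in normal-score units with the standard error, ordered by gene and by distance from its start. Orange intervals ranked higher and blue ones lower at an adjusted p under 0.05, and the PTGS1 interval at 12.7 kb and the PTGER2 interval at 12.6 kb were the 2 lower ones.

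The other genes of the pathway were 19 in a list of enzymes, carriers and receptors. Of these, 13 had a promoter peak in all 6 libraries, 2 had one in some and 4 had none, beside 5 of the 8 genes and 12142 of 20046 protein-coding genes with one in all 6. In limma 4 of the 13 ranked higher, none lower, and 9 did not pass, beside the 25.9% and 8.98% of promoter intervals given above. ABCC4, which exports prostaglandins, stood at percentiles of 77.2, 78.9 and 77.7 in WT and 93.1, 92.7 and 94.6 in CREBBP-KO (limma shift 1.00 ± 0.18 (SE), adjusted p = 2.38e-04). PTGES2, another prostaglandin E synthase, stood at 90.9, 88.3 and 93.0 in WT and 97.8, 98.8 and 97.5 in CREBBP-KO (limma shift 0.87 ± 0.17 (SE), adjusted p = 5.38e-04). Neither overlapped between genotypes. The thromboxane receptor gene TBXA2R shifted by 0.81 ± 0.26 and the aldo-keto reductase gene AKR1B1 by 0.65 ± 0.20 (SE; limma, adjusted p = 0.0198 and 0.0154).

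Among those that did not pass, PLA2G4A, whose phospholipase frees arachidonic acid, stood at 68.1 to 76.9 in WT against 68.7 to 71.6 in CREBBP-KO. PTGES3, a co-chaperone also described as a prostaglandin E synthase, was near the top in both, at 98.6 to 99.4 and 98.7 to 99.6. The prostacyclin receptor gene PTGIR stood at 83.6 to 86.8 in WT and at 88.2, 83.8 and 66.9 in CREBBP-KO, with replicate 3 the lowest (limma, adjusted p = 0.0996). For none of these promoters does a p above the threshold show that the genotypes were alike. Ranked among promoters, PLA2G4A was lower without overlap, at 11.8 to 24.8 in WT against 5.85 to 7.84 in CREBBP-KO. So were PTGIR, at 35.9 to 48.7 against 5.48 to 35.7, and AKR1C3, at 12.3 to 15.4 against 2.68 to 6.94. ABCC4, PTGES2, TBXA2R and PTGFR were higher without overlap, the PTGFR peak differing between libraries. AKR1B1 and the rest overlapped, beside 21.7% of promoters higher and 20.5% lower.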

How the data were processed

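H3K27ac ChIP-seq of 3 WT and 3 CREBBP-KO libraries was used, and the inputs were left out. Reads had been aligned by the authors to hg38 with nf-core tools (the submitters' processing notes name BWA), and MACS2 had been run on every library by itself for narrow peaks. The deposited lists give each peak's fold over local background, a linear ratio, beside the -log10 of its p-value and of its q-value, the latter at least 1.3. They hold no read counts, so the depth behind a peak is unknown, counting intervals were not computed, and the read-based test of the study was not repeated. Reads were downsampled in the study, and whether before these lists were made is not given in the sources used here. A change of equal size at every peak would not be seen in such lists.

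Overlapping or touching peaks of the 6 lists were merged (GENCODE release 44 on hg38, whose chromosome lengths held all peaks). A promoter peak was the highest overlapping 1 kb on either side of a protein-coding start. Single values were compared between genotypes with the two-sided exact permutation test. Rank shifts were fitted with limma 3.58.1 (R 4.3.3; eBayes with trend, Benjamini-Hochberg) to ranks of the highest fold per interval, turned into normal scores within each library, over the 34864 intervals with a peak in all 6 libraries and a fold of at least 5 in all 3 of a genotype. The fit was tested on simulated data. Other tools were matplotlib 3.10.9, pandas 2.3.3, numpy 2.4.6, scipy 1.17.1 and Python 3.11.15.

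The genes, lists and tests were chosen with earlier results of these data known. The text names the 8 genes with their promoter intervals, the distal intervals present in all libraries of one genotype alone or called by the fit, and the strongest distal interval of each window. An interval of the PTGER1 window that entered the counts is not reported here by itself. Of the 19 other pathway genes it names those called and 4 others. AKR1C3 and PTGFR were named in addition, after their values were seen. Named too are the 3 genes most like PTGS2 and the 3 with most lost intervals. Intervals of the PTGER3 window entered the fit but were given no p and were left out of the counts of calls. The PTGER2 ratio, the PTGES interval beyond the gene's end, the PTGS1 interval over exon 11 and the interval 15.7 kb upstream of PTGER3 were named after their values were seen. Alternatives covered the window, the fold and q filters, list length, ranking, the model, GC content and leaving out each library.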

Additional observations from a re-analysis of the deposited data

How the results depend on the processing

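The difference in peaks per library over the 8 windows, -1.33, stayed negative in the other alternatives that kept all libraries, and became 6.67 without the PTGER3 window, an alternative chosen after seeing the data. Leaving out 1 library gave -3.83 to 0.667. The 3 lost intervals became 5 with lists of equal length, 7 with a peak asked in 2 of 3 libraries, and 3 to 5 with 1 library left out. Of these, 2 lay outside the PTGER3 window with lists of equal length, 2 without CREBBP-KO replicate 1 and 1 with windows around summits. The 4 gained ones became 1 at a fold of at least 3, 0 at a fold of at least 5, 0 where the -log10 q had to reach 5, 1 with lists of equal length, and 4 to 5 with 1 library left out. Of the fitted intervals, the 2 ranked lower became 1 with a fold filter of 3, 1 with no filter and 0 with ranking by -log10 p, and 0 to 3 with 1 library left out. The 6 ranked higher became 1 with ranking by -log10 p and 3 with the GC trend removed, and 2 to 7 with 1 library left out. The cause of these moves was not tested. Library numbers did not pair the samples (correlation of the deviations of same-numbered libraries 0.011, 0.014 and 0.028), and with a replicate block 2 intervals ranked lower and 6 higher. The block changed neither of these counts in the windows. Promoter differences for PTGS1, PTGS2, PTGER2 and PTGER4 kept their direction in all alternatives, and 1 library left out gave 8.69 to 13.3, 2.99 to 5.29, 7.64 to 11.1 and 0.713 to 3.47 percentile points. That of PTGER1 was 1.53 with ranking by -log10 p and -13.1 to 7.89 with 1 library left out. Over all fitted intervals ranking by -log10 p called 4329 higher and 4498 lower, against 6472 and 6533.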
